A study of Mus musculus with 4 samples.

Results

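The 10 dopaminergic neuron genes Th, Slc6a3, Ddc, Nr4a2, Lmx1a, Lmx1b, Foxa2, En1, Drd1 and Drd2 were followed across 4 sections of mouse brain organoids, on which RNA was captured in spots that each hold a small region of tissue. They code for TH, SLC6A3, DDC, NR4A2, LMX1A, LMX1B, FOXA2, EN1, DRD1 and DRD2. They were taken by symbol from the expression tables of the sections, without regard to case. All 10 were listed in every section, out of 22218 genes listed in any section and 19783 listed in all 4. The organoids were grown from embryonic stem cells of a single line with the genotype CARLIN/Cas9, a lineage barcode with its nuclease that every group carried. Cells had been seeded at 5000 per well, and the organoids were 3 months old. From day 9 the VitaminA organoids received 2% B27 supplement with vitamin A, the ATRA organoids all-trans retinoic acid at 1 µM and the BMS753 organoids that compound at 1 µM. The BMS961+BMS641 organoids received both compounds at 0.1 µM. ATRA acts on every type of retinoic acid receptor, whereas BMS753 activates the alpha type, BMS961 the gamma type and BMS641 the beta type. Each treatment has 1 section, and several organoids were frozen together in a mold, so no difference between treatments could be tested. All comparisons below are descriptions of 4 sections.

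Dopamine is made from tyrosine in successive steps, by tyrosine hydroxylase (Th) and then by aromatic amino acid decarboxylase (Ddc), and released dopamine is taken back into the cell by the transporter encoded by Slc6a3. In the embryo, midbrain dopamine neurons arise from the floor plate, where Foxa2, Lmx1a and Lmx1b act in progenitors, while En1 and Nr4a2 act in the maturation and survival of the neurons. Dopamine acts on D1-like receptors (Drd1), which raise cyclic AMP, and on D2-like receptors (Drd2), which lower it. Several of these genes also work elsewhere, Ddc in serotonin neurons, Th in noradrenaline neurons, Lmx1a in the roof plate and Foxa2 in endoderm.

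The sections held 552 spots for VitaminA, 593 for ATRA, 469 in BMS753 and 365 with BMS961+BMS641. The level of a gene is its mean signal over the spots of a section, written as ppm of the signal of all genes. A gene was called detected in a spot when it stood above the lowest class, the lowest tied rank of that spot, in which zeros and low values split by gene order cannot be told apart. The median number of genes detected per spot was 4659 in VitaminA, against 3388 for ATRA, 3330 for BMS753 and 4462 for BMS961+BMS641. Read depth is unknown, so the number of genes detected per spot is given in its place. Each section was also divided into 4 quadrants, whose values show the spread within a section and are not replicates. In such mixed tissue, fewer cells of a type and less RNA per cell cannot be told apart.

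The genes fell into separate patterns over the sections. Nr4a2, En1 and Drd2 had their highest levels in VitaminA, Ddc and Slc6a3 in BMS753, and Lmx1a in BMS961+BMS641, in each case with all 4 quadrants above those of every other section. Lmx1b was also highest in BMS753, by a smaller margin. Foxa2 and Drd1 were at or below 6 ppm everywhere, and Th was at or below 13.2 ppm. The median share of spots in which a member was detected was 43.5% for VitaminA, 15.4% for ATRA, 24.0% in BMS753 and 21.9% with BMS961+BMS641, against 11.6%, 8.26%, 9.38% and 12.3% over all genes listed.

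**Figure D1:**
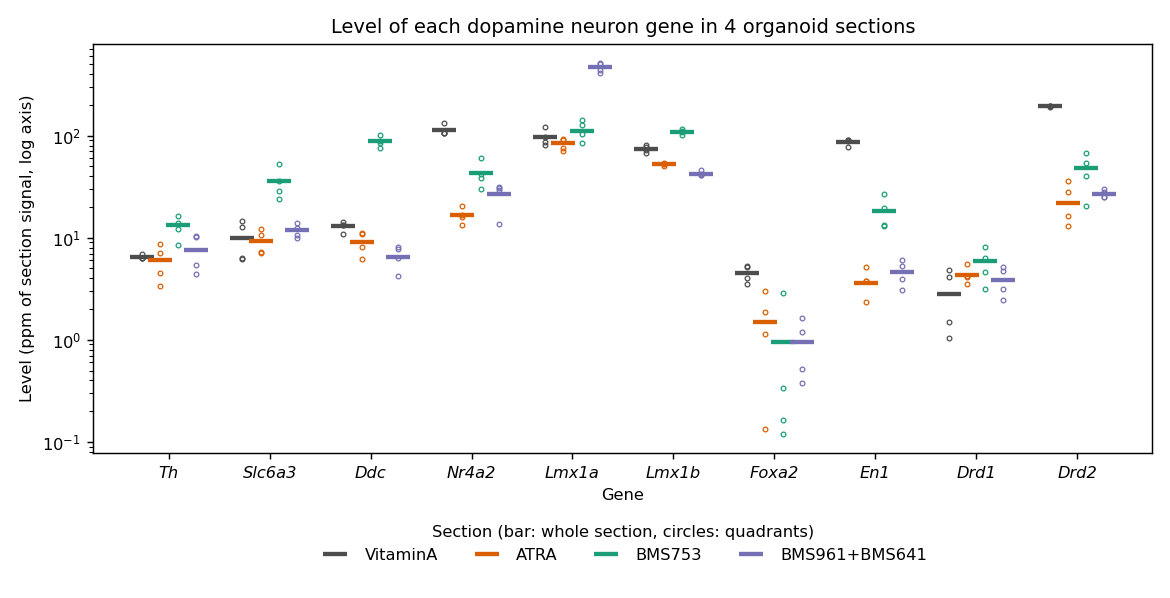
Level of each of the 10 genes in the 4 sections, in ppm of the section's signal on a log axis. Bars are whole sections and circles their 4 quadrants. Drd2, at 194 ppm, En1 and Nr4a2 stood highest in VitaminA, Ddc, at 87.8 ppm, and Slc6a3 in BMS753, and Lmx1a, at 467 ppm, in BMS961+BMS641.

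Th, the rate-limiting enzyme of dopamine synthesis, had a level of 6.47 ppm in VitaminA, with quadrants from 6.27 to 6.99 ppm. Its level was 6.09 ppm in ATRA (quadrants 3.38 to 8.78 ppm), 13.2 ppm in BMS753 (8.51 to 16.3 ppm) and 7.64 ppm in BMS961+BMS641 (4.39 to 10.4 ppm). The BMS753 section was highest, but in the order of levels each neighbouring pair of sections overlapped in its quadrants. Th was detected in 63 of 552 spots in VitaminA (11.4%), 85 for ATRA (14.3%), 88 for BMS753 (18.8%) and 82 for BMS961+BMS641 (22.5%). In spots with 3000 to 5000 genes detected, a range chosen after seeing the data, these shares were 8.80%, 14.4%, 19.5% and 16.4%, so the section with the highest share was no longer the same. Over all spots, shares of spots and ppm levels thus placed different sections first.

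Slc6a3, the dopamine transporter that defines these neurons functionally, had a level of 9.94 ppm in VitaminA, against 9.21 ppm for ATRA, 36.3 ppm for BMS753 and 11.9 ppm for BMS961+BMS641. The quadrants of BMS753 ran from 24.0 to 52.6 ppm, above all quadrants of the other sections, whose highest value was 14.5 ppm in VitaminA. The gene was detected in 12.5%, 10.8%, 23.2% and 16.7% of spots, in the same order of sections. In spots of 3000 to 5000 genes the share in BMS753 was 29.3% and the other 3 lay between 7.86% and 8.80%. The lowest class held 10.7% of the gene's signal in ATRA and 10.6% in BMS961+BMS641, and 3.69% in BMS753.

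Ddc, which turns L-DOPA into dopamine and also makes serotonin from its precursor, showed the widest gap of the enzymes. Its level was 12.9 ppm in VitaminA (quadrants 10.8 to 14.1 ppm), 9.05 ppm in ATRA (6.17 to 11.03 ppm), 87.8 ppm in BMS753 (75.7 to 101 ppm) and 6.49 ppm in BMS961+BMS641 (4.19 to 8.06 ppm). BMS753 stood alone, and the other sections overlapped with their neighbours in the order. Ddc was detected in 283 of 469 spots in BMS753 (60.3%), against 29.7% in VitaminA, 18.7% in ATRA and 21.4% in BMS961+BMS641. None of its signal came from the lowest class in any section. The reference table has 2 start sites for this gene, and the 250 bases before each are shown because Ddc had the largest ratio of any member in BMS753 against VitaminA and against ATRA. The build is GRCm38.p6 (RefSeq), which differs from the authors' build, and both windows are on the minus strand, at chr11:11898145-11898394 for the upstream start and chr11:11890409-11890658 for the downstream start. Capitals mark the letters of the motifs described next.
Ddc upstream start: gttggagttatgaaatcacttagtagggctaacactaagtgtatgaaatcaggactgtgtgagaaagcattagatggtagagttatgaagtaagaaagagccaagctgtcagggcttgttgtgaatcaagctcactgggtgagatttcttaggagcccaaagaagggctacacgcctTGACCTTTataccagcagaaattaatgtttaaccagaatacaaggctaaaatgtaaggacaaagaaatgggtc
Ddc downstream start: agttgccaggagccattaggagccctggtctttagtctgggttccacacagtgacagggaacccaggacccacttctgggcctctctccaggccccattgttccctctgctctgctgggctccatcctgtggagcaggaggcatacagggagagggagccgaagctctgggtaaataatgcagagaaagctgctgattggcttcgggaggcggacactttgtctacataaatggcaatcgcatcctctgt

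The motifs searched on both strands were AGGTCA, the half-site bound by many nuclear receptors including those for retinoic acid, and AAAGGTCA, the site of the NR4A2 family, which contains the former. The upstream window of Ddc holds both in 1 place, as the reverse complement TGACCTTT, and that match begins at position -73 from the start. It is the only match of either motif in the 14 windows of the 10 genes. AGGTCA occurs in 14.0% of the 32851 windows of 250 bases in the table and AAAGGTCA in 1.34%. Such a match describes letters and was not linked to the signal, since the sections carry no binding data and the deposited values do not tell start sites apart.

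Nr4a2, a nuclear receptor needed for dopamine neuron development that also serves as an activity-induced gene in other neurons, had a level of 113 ppm in VitaminA (quadrants 107 to 135 ppm). Its level was 16.6 ppm in ATRA (13.2 to 20.5 ppm), 42.7 ppm in BMS753 (30.3 to 60.4 ppm) and 26.9 ppm in BMS961+BMS641 (13.6 to 31.7 ppm). VitaminA lay above all 3 ligand sections, which overlapped with their neighbours in the order. The gene was detected in 68.1% of VitaminA spots, and in 16.7%, 26.2% and 27.9% of spots of the ligand sections in that order. In spots of 3000 to 5000 genes these shares were 62.7%, 14.8%, 29.3% and 25%.

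En1, a homeodomain factor of the midbrain and anterior hindbrain, had the largest ratios of the 10 genes in ATRA and BMS961+BMS641 against VitaminA. Its level was 86.8 ppm in VitaminA (77.4 to 91.1 ppm), 3.60 ppm in ATRA (2.32 to 5.17 ppm), 18.4 ppm in BMS753 (13.1 to 26.8 ppm) and 4.59 ppm in BMS961+BMS641 (3.09 to 6.08 ppm). VitaminA stood above BMS753 and BMS753 above the other 2 ligand sections without overlap of quadrants, while ATRA and BMS961+BMS641 overlapped. It was detected in 370 of 552 spots in VitaminA (67.0%), and in 36 spots of ATRA (6.07%), 85 of BMS753 (18.1%) and 33 of BMS961+BMS641 (9.04%). The genes on either side of it in the genome had 16.4, 8.80, 14.9 and 18.7 ppm (Marco) and 5.58, 4.31, 3.92 and 3.12 ppm (Insig2) in the same order of sections, with smaller ratios than En1.

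Lmx1a, a LIM homeodomain factor of midbrain floor plate progenitors and of the roof plate, was the member with the highest share of spots in any section. Its level was 97.5 ppm in VitaminA (81.2 to 123 ppm), 83.9 ppm in ATRA (71.4 to 93.1 ppm), 112 ppm in BMS753 (85.7 to 143 ppm) and 467 ppm in BMS961+BMS641 (415 to 520 ppm). The first 3 overlapped and the last stood alone. It was detected in 354 of 365 spots of BMS961+BMS641 (97.0%), against 67.2% in VitaminA and 54.6% in both ATRA and BMS753. Rxrg, beside it in the genome, did not stand alone in that section, with 24.6 ppm in BMS961+BMS641 and 25.8 ppm in ATRA. Other roof plate markers in BMS961+BMS641 went both ways, with Rspo1, a Wnt enhancer, at 106 ppm against 26.996 ppm in VitaminA, and Wnt3a at 12.4 ppm against 58.1 ppm.

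Its paralogue Lmx1b, which acts in the same progenitors and is also needed by serotonin neurons, did not share this pattern. Its level was 74.1 ppm in VitaminA (67.7 to 80.2 ppm), 52.6 ppm in ATRA (50.7 to 53.7 ppm), 109 ppm in BMS753 (102 to 116 ppm) and 42.3 ppm in BMS961+BMS641 (40.8 to 45.9 ppm). No quadrants overlapped between neighbours in the order, although the sections differed by less than for the other transcription factors named above. The share of spots was 57.2%, 42.7%, 56.3% and 49.6%, so by that measure VitaminA and BMS753 were close.

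Foxa2, a forkhead factor of the floor plate and of endoderm, was the least detected transcription factor of the list. Its level was 4.51 ppm in VitaminA (3.53 to 5.25 ppm), 1.503 ppm in ATRA, 0.946 ppm in BMS753 and 0.954 ppm in BMS961+BMS641. It was detected in 36 spots in VitaminA (6.52%), 9 for ATRA (1.52%), 10 for BMS753 (2.13%) and 8 for BMS961+BMS641 (2.19%). The VitaminA quadrants lay above those of the other 3 sections, whose levels rest on 10 spots or fewer each. Foxa1, its close relative, was detected in 7.97% of spots for VitaminA, 2.53% for ATRA, 1.92% in BMS753 and 8.22% with BMS961+BMS641.

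Drd2, the D2 receptor, carried by dopamine neurons themselves and by many of their targets, had a level of 194 ppm in VitaminA (189 to 197 ppm). The ligand sections were at 22.1 ppm in ATRA (12.9 to 35.7 ppm), 48.0 ppm in BMS753 (20.4 to 67.4 ppm) and 26.97 ppm in BMS961+BMS641 (24.9 to 30.1 ppm). All VitaminA quadrants lay above all others, and the ligand sections overlapped. Drd2 was detected in 472 of 552 VitaminA spots (85.5%) and in 16.5%, 24.7% and 27.9% of the spots of ATRA, BMS753 and BMS961+BMS641. The lowest class supplied 0.482% of its signal in VitaminA and 24.7%, 20.4% and 21.2% in the ligand sections, so its levels there are partly values set by gene order.

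Drd1, the D1 receptor, was detected in 14 spots in VitaminA (2.54%), 6 for ATRA (1.01%), 3 for BMS753 (0.640%) and 6 for BMS961+BMS641 (1.64%). Its levels of 2.83, 4.30, 5.92 and 3.87 ppm in these sections overlapped in their quadrants. The lowest class supplied 21.0%, 71.8%, 96.3% and 90.5% of that signal. With that class set to 0 the levels were 2.37, 1.31, 0.256 and 0.395 ppm, and the order of the sections turned from BMS753 highest to BMS753 lowest. Drd1 is therefore given no direction, and its ratios below are counted but not read.

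**Figure D2:**
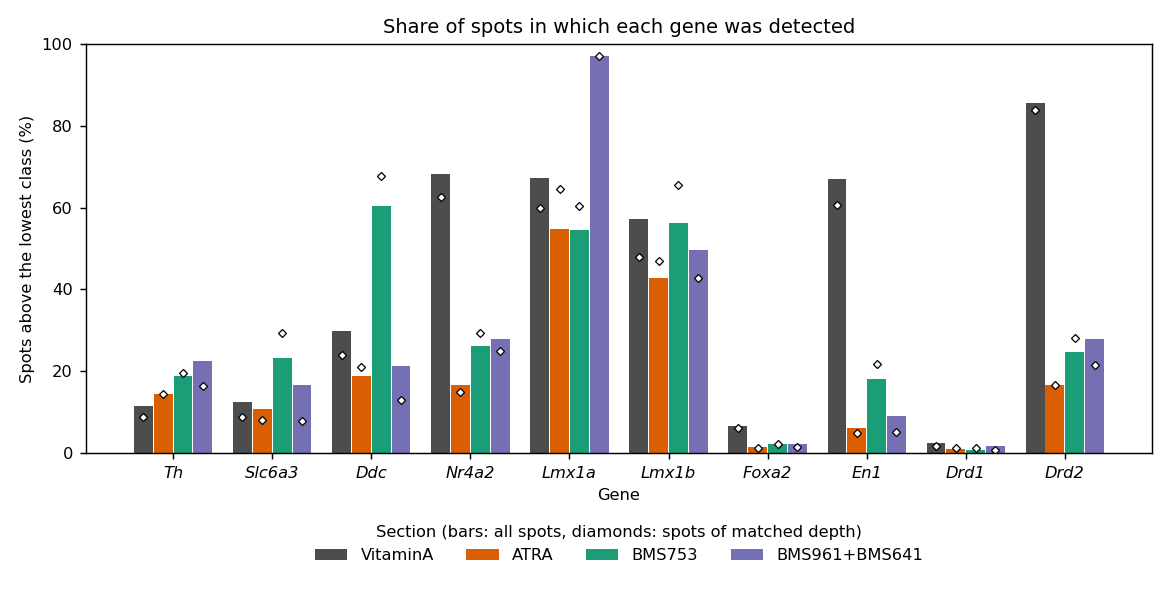
Share of spots, in percent, in which each gene stood above the lowest class. Bars are all spots of a section and diamonds the spots with 3000 to 5000 genes detected. Lmx1a reached 97.0% in BMS961+BMS641, Drd2 85.5% in VitaminA and Ddc 60.3% in BMS753, while Foxa2 and Drd1 stayed under 7% in every section.

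The 250 bases before the start of Nr4a2, En1 and Drd2, which shared their highest section, and of Lmx1a, which had another, are shown for comparison. They are on GRCm38.p6 (RefSeq), at chr2:57124004-57124253 on the minus strand for Nr4a2, chr1:120602237-120602486 on the plus strand for En1, chr9:49340153-49340402 on the plus strand for Drd2 and chr1:167689308-167689557 on the plus strand for Lmx1a. No letters are in capitals because neither motif occurs in them.
Nr4a2: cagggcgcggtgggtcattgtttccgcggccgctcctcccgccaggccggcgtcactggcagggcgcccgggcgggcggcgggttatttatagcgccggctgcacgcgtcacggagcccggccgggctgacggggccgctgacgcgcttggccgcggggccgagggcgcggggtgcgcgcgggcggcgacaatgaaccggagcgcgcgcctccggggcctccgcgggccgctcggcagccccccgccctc
En1: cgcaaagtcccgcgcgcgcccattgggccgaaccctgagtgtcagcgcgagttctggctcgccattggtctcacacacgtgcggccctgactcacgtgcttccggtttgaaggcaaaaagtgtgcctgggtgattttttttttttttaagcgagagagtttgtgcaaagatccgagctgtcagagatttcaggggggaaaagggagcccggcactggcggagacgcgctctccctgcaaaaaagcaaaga
Drd2: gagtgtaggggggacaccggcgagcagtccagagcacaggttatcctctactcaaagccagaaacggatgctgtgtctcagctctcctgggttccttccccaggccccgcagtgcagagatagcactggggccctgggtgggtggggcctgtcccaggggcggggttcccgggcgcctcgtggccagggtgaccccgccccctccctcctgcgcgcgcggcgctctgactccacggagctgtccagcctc
Lmx1a: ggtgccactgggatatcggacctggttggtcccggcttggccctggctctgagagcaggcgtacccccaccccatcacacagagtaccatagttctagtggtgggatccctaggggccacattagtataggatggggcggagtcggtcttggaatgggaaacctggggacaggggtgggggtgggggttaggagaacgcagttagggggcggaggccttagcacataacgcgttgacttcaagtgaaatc

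The windows of the first 3 differ in base composition, with 80.0% G or C in Nr4a2, 56.0% in En1 and 68.8% in Drd2, and that of Lmx1a holds 59.2%. Whether base composition goes with the section of highest level was not tested.

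To compare treatments, the log2 ratio of levels was taken with a pseudocount of 1 ppm, for genes that reached 5 ppm in at least 1 of both sections. A gene was counted as higher or lower when the ratio reached 2-fold. The 3 comparisons with VitaminA share its section, and BMS753 and ATRA were set against each other because they had the same dose. Ranges in brackets run over the 16 pairs of quadrants.

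In ATRA against VitaminA, 8 of the 10 genes could be compared, without Foxa2 and Drd1, and all 8 ratios were below 0. At least 2-fold lower were 3 of the 8, namely En1 (log2 ratio -4.25, -4.79 to -3.67), Drd2 (-3.08, -3.83 to -2.37) and Nr4a2 (-2.70, -3.26 to -2.32), while 22.9% of the 14794 genes compared were lower by that much. No member was 2-fold higher, against 8.60% of all genes, so past 2-fold either way were 3 of 8, against 31.5%. All quadrants were lower for 4 of 8, where 36.1% of all genes were, and higher for 0, where 13.2% were. For En1, 0.669% of all genes had a ratio at least as low, for Drd2 2.01% and for Nr4a2 2.80%. The other 5, Th, Slc6a3, Ddc, Lmx1a and Lmx1b, had log2 ratios between -0.49 and -0.07. The list's median was -0.48 and that of all genes -0.33, with 65.0% of all genes below 0. Centred on the latter, Th stood at 0.26, Slc6a3 at 0.23 and Lmx1a at 0.12, so the direction of these 3 flips with the scaling.

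In BMS753 against VitaminA the members split. Of 9 compared, 6 had ratios above 0 and 3 below, close to the 63.8% and 36.2% of all 15676 genes. At least 2-fold higher were 2, against 17.7% of all genes, and 3 were at least 2-fold lower, against 10.0%. The higher ones were Ddc (log2 ratio 2.67, 2.34 to 3.11) and Slc6a3 (1.77, 0.69 to 2.91), and 0.517% and 3.29% of all genes had ratios at least as high. By the share of all spots both were under 2-fold, with log2 ratios of 0.998 for Ddc and 0.84 for Slc6a3. The number of genes detected per spot differs between these sections. In spots with 3000 to 5000 genes detected, chosen after seeing the data, Ddc was detected in 67.8% for BMS753 and 23.9% for VitaminA. For Slc6a3 the shares of these spots were 29.3% and 8.80%. Th stood at 0.93 (0.25 to 1.25), under the 2-fold limit with all quadrants higher, and 21.7% of all genes were at least as high. The lower ones were En1 (-2.17, -2.70 to -1.49), Drd2 (-1.99, -3.21 to -1.47) and Nr4a2 (-1.39, -2.11 to -0.81). Past 2-fold either way were 5 of 9, against 27.7% of all genes. All quadrants were higher for 4, where 23.2% of all genes were, and lower for 3, where 14.9% were. Drd1 had 0.85, and -1.42 with the lowest class at 0. The list's median was 0.55 and that of all genes 0.31, but by the share of spots in place of levels the list's median was -0.30.

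In BMS961+BMS641 against VitaminA, at 0.1 µM against the 1 µM of the other ligands, 8 genes were compared. Lmx1a alone was at least 2-fold higher (log2 ratio 2.25, 1.75 to 2.66), as were 10.2% of 14959 genes, and 3.36% of all genes had a ratio at least as high. At least 2-fold lower were En1 (-3.97, -4.49 to -3.47), Drd2 (-2.80, -2.94 to -2.61) and Nr4a2 (-2.04, -3.22 to -1.72), 3 of 8 against 19.9% of all genes. Ddc (-0.89) and Lmx1b (-0.79) were lower in all quadrants but by less than 2-fold, and Th (0.21) and Slc6a3 (0.24) overlapped. Past 2-fold either way were 4 of 8, against 30.0% of all genes. All quadrants were higher for 1, where 14.3% of all genes were, and lower for 5, where 32.4% were. By the share of spots the ratio of Lmx1a was 0.52, with 97.0% and 67.2% of spots. The list's median was -0.84 beside -0.25 for all genes.

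In BMS753 against ATRA, at equal doses, all 9 genes compared had ratios above 0, as had 80.4% of all 14902 genes. Of the 9, 7 were at least 2-fold higher, where 26.4% of all genes were. None was 2-fold lower, against 7.39%, and 33.8% of all genes passed 2-fold either way. All quadrants were higher for 5, where 34.9% of all genes were, and lower for 0, where 9.31% were. The 7 were Ddc (log2 ratio 3.14), En1 (2.08), Slc6a3 (1.87), Nr4a2 (1.31), Drd2 (1.09), Lmx1b (1.03) and Th (1.01). Of these, Drd2 (-0.78 to 2.30) and Th (-0.04 to 1.98) overlapped in their quadrants. The median ratio of all genes was 0.71, so most genes had higher values in this section, and the list's median was 1.09. Centred on the median of all genes, 3 members stayed past 2-fold, namely Ddc (2.43), En1 (1.36) and Slc6a3 (1.15). Drd1 had 0.38, and -0.88 with the lowest class at 0.

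**Figure D3:**
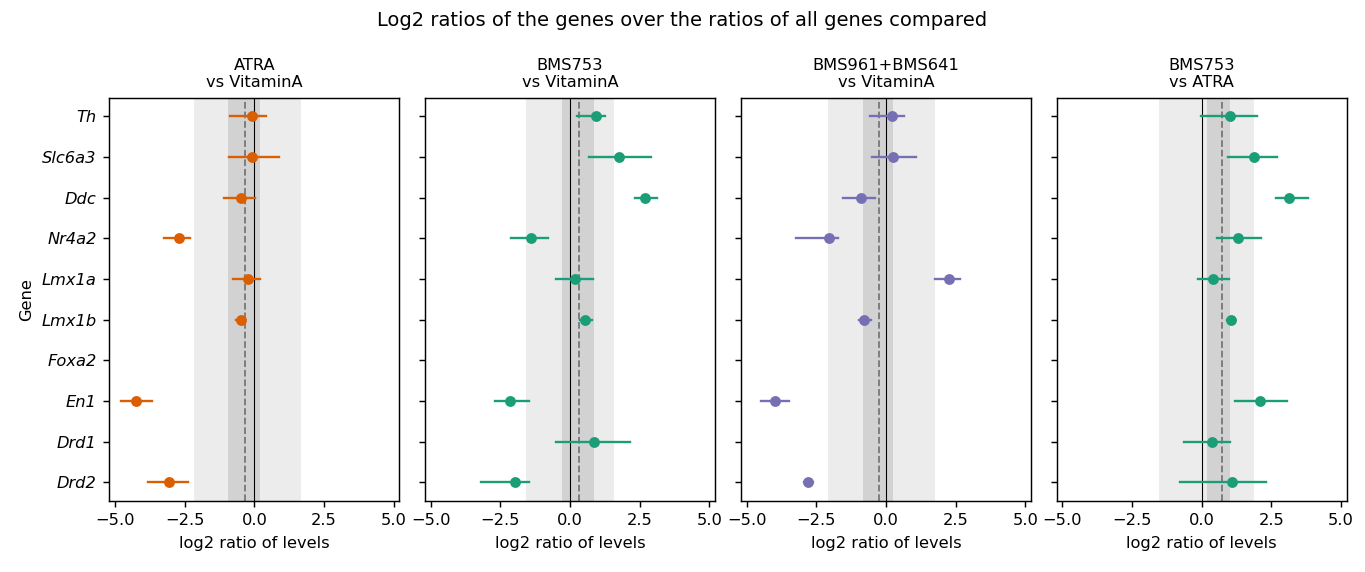
Log2 ratios of levels for the 10 genes in the 4 comparisons. Points are whole sections and lines the range over 16 pairs of quadrants; grey bands hold the central 90% and 50% of all genes compared, and the dashed line is their median. En1, Drd2 and Nr4a2 lay at or beyond the lower side of the band in the comparisons with VitaminA, with Nr4a2 inside it for BMS753 (-1.39) and just inside for BMS961+BMS641 (-2.04).

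Detection of members in the same spot followed the number of genes detected there. A spot held a median of 4 of the 10 genes in VitaminA, against 2 for ATRA, 3 for BMS753 and 3 for BMS961+BMS641, and 117 of the 593 ATRA spots held none. Over spots of a section, the number of members had a Spearman correlation of 0.63 to 0.75 with the number of genes detected, both being counts over the same spots. Among pairs of members in at least 10% of spots each, the median ratio of spots holding both to the number from the product of their shares was 1.06 for VitaminA, 1.46 for ATRA, 1.22 in BMS753 and 1.303 with BMS961+BMS641. Within groups of spots with similar numbers of genes detected, chosen after seeing the data, it was 1.01, 1.09, 1.02 and 1.03. The pairs then ran from 0.792 for Th and Ddc in VitaminA to 1.505 for Slc6a3 and En1 in BMS753, the only pair at 1.5 or more.

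Spots with the full set of dopamine handling genes were few. Th, Ddc, Slc6a3 and the vesicle transporter Slc18a2 were detected together in 4 spots of ATRA (0.675%), 10 of BMS753 (2.13%) and 4 of BMS961+BMS641 (1.10%). In VitaminA they were together in 0 of 552 spots, which allows a share of up to 0.543%. The product of the 4 shares gives 0.139 spots for ATRA, 2.55 for BMS753, 0.297 for BMS961+BMS641 and 0.365 for VitaminA, so the ligand sections lay above it, without regard to the number of genes per spot, whose part was not tested for this set. Ddc was held by 26.98% of Th spots and 30.1% of the remaining spots in VitaminA. The shares were 29.4% and 16.9% in ATRA, 71.6% and 57.7% in BMS753, and 29.3% and 19.1% in BMS961+BMS641. In BMS753 the Th spots had a median of 4560 genes detected and the remaining spots 3070. Within groups of spots with similar numbers of genes, Th and Ddc were together 0.792, 1.10, 0.992 and 1.04 times as often as their shares give, in the same order of sections. Of the Th spots in BMS753, 53.4% also held Dbh, the enzyme that turns dopamine into noradrenaline, against 35.2% of the remaining spots. In BMS961+BMS641 the shares for Dbh were 47.6% of Th spots and 30.7% of the rest, with medians of 5677 and 4122 genes. The part of the gene number in the differences for Dbh was not tested. Drd1 and Drd2 were together in 13 spots of VitaminA, where the product of their shares gives 12.0 spots.

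The maps of the 3 ligand sections show lines along rows and columns of the array. Row 50 had a median of 7683 genes detected in ATRA, 7301 for BMS753 and 9957 for BMS961+BMS641, against 3310, 3266 and 4360 in the rest of those sections. In VitaminA the same row had 2876 genes and the rest 4714. Rows or columns of at least 5 spots with at least 1.5 times the section's median number of genes were 6 in ATRA, 9 in BMS753, 4 in BMS961+BMS641 and 0 in VitaminA. They held 15.7%, 19.2% and 9.59% of the spots of the ligand sections. Many of the spots of class 3 or more lay in them, 30 of 62 for Ddc in BMS753 and 38 of 71 for Lmx1a in ATRA, but 35 of 289 for Lmx1a in BMS961+BMS641. Without these lines Ddc was at 88.1 ppm in BMS753 (87.8 ppm with them) and Lmx1a at 461 ppm in BMS961+BMS641 (467 ppm with them). The largest change of a member's level, as a ratio, was that of Drd1 in BMS753, from 5.92 to 6.93 ppm. The shares of spots were lower without the lines for every member in the ligand sections, as with Nr4a2 in BMS753 (26.2% to 18.5%). They moved by over 1.5 times for En1 in ATRA (6.07% to 3.80%) and for Foxa2 in ATRA (1.52% to 1.00%) and BMS753 (2.13% to 1.32%). The lines were noticed on the maps and left out after seeing the data.

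**Figure D4:**
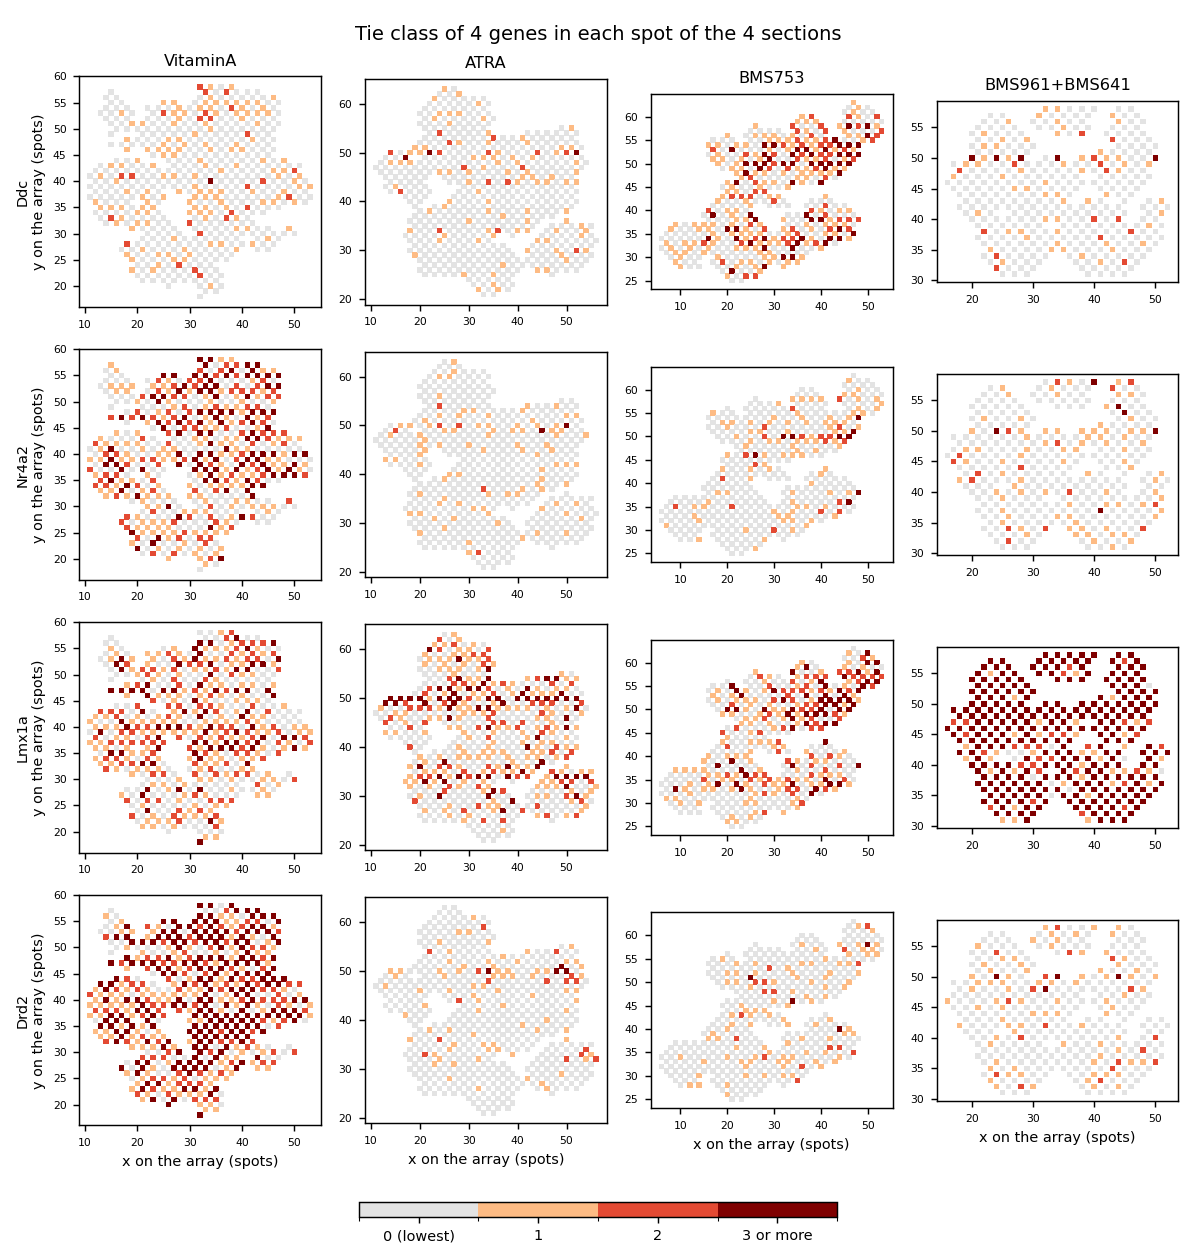
Tie class of Ddc, Nr4a2, Lmx1a and Drd2 in each spot, by position on the array in spots. Grey is the lowest class and darker red a higher class. Ddc was detected most widely in BMS753 (60.3% of spots), Lmx1a in BMS961+BMS641 (97.0%), and Nr4a2 and Drd2 in VitaminA (68.1% and 85.5%); lines such as row 50 in the ligand sections have more genes detected.

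Likeness between neighbouring spots was low. Moran's index over 8 neighbours, which is near 0 for a gene spread without spatial order, lay between -0.034 and 0.083 for members in at least 10% of spots. The highest were Drd2 in BMS753 (0.083, with 16.9% of genes at least as high) and Lmx1a in VitaminA (0.081, 8.23%). The median over all such genes was 0.014 in VitaminA, against 0.018 for ATRA, 0.031 for BMS753 and 0.0073 for BMS961+BMS641.

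Genes with the most similar pattern over spots were sought for the 7 members detected in at least 10% of spots of every section, among 7646 genes. The highest mean Spearman correlations over the 4 sections, which have 365 to 593 spots, were 0.14 for Th (Ppp1r12a), 0.15 for Ddc (Dcp2), 0.14 for Lmx1a (Ap1b1) and 0.10 for Lmx1b (Lat2). For Slc6a3 (Sult2a3, 0.37) and Nr4a2 (Bbc3, 0.29) they were higher, but in VitaminA these pairs had 0.10 and -0.02. Of the 21 genes so found, 3 for each member, 0 were also found when tie classes replaced the signal. No likeness is read from these values.

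The other genes of the pathway had several different orders of sections. Of the 12 synthesis and vesicle genes, which include Th, Ddc and Slc6a3, 11 could be compared in BMS753 against VitaminA, with 5 at least 2-fold higher and 2 lower, where 17.7% and 10.0% of all genes were. Slc18a2, which loads dopamine into vesicles, had 16.7 ppm for VitaminA, 10.6 ppm for ATRA, 36.5 ppm in BMS753 and 9.80 ppm with BMS961+BMS641. It was highest in BMS753, as Ddc and Slc6a3 were. Gch1, which makes the first step of the cofactor of tyrosine hydroxylase, had 137 ppm in VitaminA and 15.8, 19.7 and 26.5 ppm in ATRA, BMS753 and BMS961+BMS641. Its highest section was that of Nr4a2, En1 and Drd2. Some markers outside this pathway shared it, such as Syp and Tph1, while others given at the end did not. In ATRA against VitaminA, 8 of the 12 could be compared, with 0 higher and 2 lower by 2-fold, against 8.60% and 22.9% of all genes. In BMS961+BMS641 against VitaminA it was 1 higher and 2 lower of 9, against 10.2% and 19.9%. In BMS753 against ATRA 7 were higher and 0 lower of 11, against 26.4% and 7.39%.

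Among the 8 genes of dopamine breakdown and conversion, all compared, 1 was higher and 0 lower by 2-fold in BMS753 against VitaminA, 0 and 1 in ATRA, 0 and 2 in BMS961+BMS641, and 4 and 0 in BMS753 against ATRA. The shares of all genes were 17.7% and 10.0%, 8.60% and 22.9%, 10.2% and 19.9%, and 26.4% and 7.39% in these comparisons, and most of the counts are near them. The higher one in BMS753 was Dbh, at 102 ppm against 30.5 ppm in VitaminA, 29.9 ppm in ATRA and 40.8 ppm in BMS961+BMS641. With the lowest class at 0 these levels were 88.7 ppm in BMS753 and 18.6, 14.6 and 29.5 ppm in the others. By the share of spots BMS753 (38.6%) and BMS961+BMS641 (34.5%) were close, with 16.8% in VitaminA and 15.5% in ATRA. Maob, a monoamine oxidase, was lower in BMS961+BMS641, at 9.80 ppm against 24.0 ppm in VitaminA.

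Of the 28 midbrain factors, which include Nr4a2, Lmx1a, Lmx1b, Foxa2 and En1, 22 could be compared in each comparison. In ATRA against VitaminA 3 were at least 2-fold higher and 2 lower, in BMS753 0 and 3, in BMS961+BMS641 1 and 5, and in BMS753 against ATRA 5 and 2. Over all genes the shares were 8.60% and 22.9% in ATRA, 17.7% and 10.0% in BMS753, 10.2% and 19.9% in BMS961+BMS641, and 26.4% and 7.39% in BMS753 against ATRA. Shh, the floor plate signal, had 66.3 ppm in ATRA and 11.7 ppm in VitaminA, 9.01 ppm in BMS753 and 4.62 ppm in BMS961+BMS641. Tcf12, a partner of proneural factors, had 1132 ppm in ATRA and 78.2, 76.3 and 42.6 ppm in the other 3. Pitx3, which marks committed dopamine neurons, had 10.1 ppm in VitaminA, against 5.81 ppm for ATRA, 3.06 ppm for BMS753 and 4.77 ppm for BMS961+BMS641. Otx2, a forebrain and midbrain factor, had 4.85, 11.1, 6.88 and 6.15 ppm, and Corin, a floor plate surface protease, had 56.6, 40.1, 74.1 and 39.5 ppm.

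**Figure D5:**
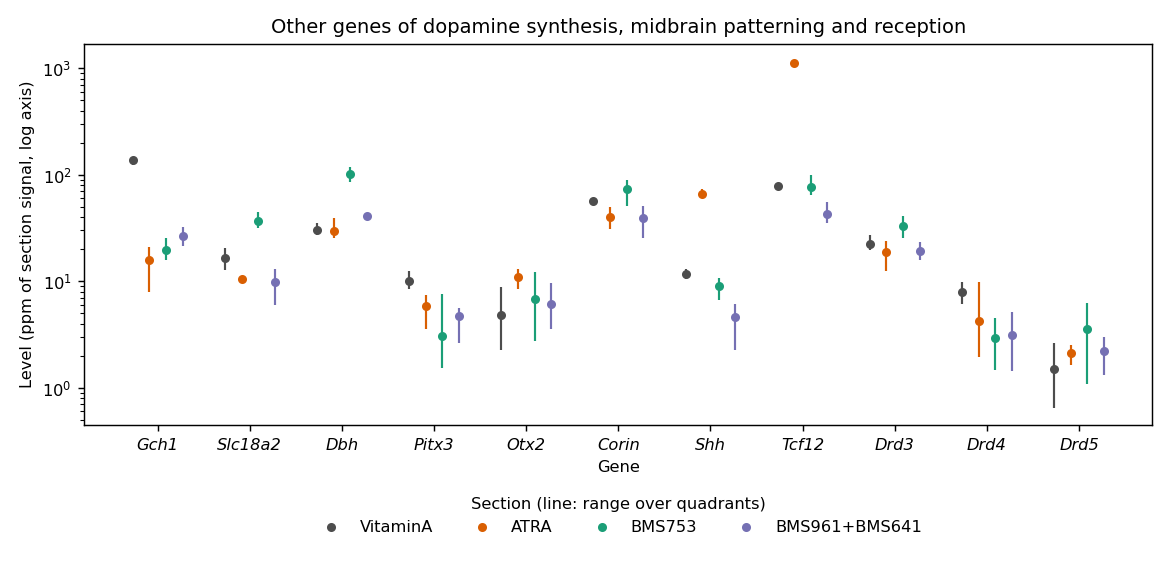
Level of 11 other genes of dopamine synthesis, midbrain patterning and dopamine reception in the 4 sections, in ppm on a log axis, with lines over the 4 quadrants. Gch1 was highest in VitaminA (137 ppm), Slc18a2 and Dbh in BMS753 (36.5 and 102 ppm), and Shh and Tcf12 in ATRA (66.3 and 1132 ppm).

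Among receptors, Drd3, a D2-like receptor, had 22.4 ppm for VitaminA, 19.0 ppm for ATRA, 33.02 ppm in BMS753 and 19.3 ppm with BMS961+BMS641 and was detected in 29.0% to 35.1% of spots. Drd4 was detected in 14.9%, 5.23%, 4.69% and 10.7% of spots in these sections, and Drd5, the other D1-like receptor, in 10, 2, 1 and 1 spots. Drd3 thus did not have its highest level in VitaminA, as Drd2 did. Of the 5 dopamine receptor genes, Drd1 and Drd2 among them, 3 were compared in ATRA against VitaminA with 1 lower by 2-fold, 4 in BMS753 with 2 lower, and 3 in BMS961+BMS641 with 2 lower, where 22.9%, 10.0% and 19.9% of all genes were lower. Of the 24 genes of dopamine receptor signalling, 19 were compared in ATRA against VitaminA, with 1 higher and 5 lower by 2-fold, against 8.60% and 22.9% of all genes. It was 1 and 0 of 20 in BMS753, against 17.7% and 10.0%, and 2 and 2 of 18 in BMS961+BMS641, against 10.2% and 19.9%. Among them Gnal, the G protein subunit that couples D1 receptors to cyclase in the striatum, had a level of 872 ppm in BMS961+BMS641, against 74.5 ppm in VitaminA, 34.9 ppm in ATRA and 146 ppm in BMS753. Adora2a, the adenosine receptor found beside Drd2 on striatal neurons, had 21.4 ppm in VitaminA and 1.93, 4.87 and 8.09 ppm in the ligand sections. Of the 21 subtype and trophic genes, 18 were compared with VitaminA in each ligand section. By 2-fold, 1 was higher and 7 lower in ATRA, 1 and 2 in BMS753, and 1 and 6 in BMS961+BMS641, with the same shares of all genes as for the signalling genes. Dlk1 had 1091 ppm in BMS961+BMS641 and 29.9, 9.09 and 44.8 ppm in VitaminA, ATRA and BMS753. Gfra1, a receptor for the trophic factor GDNF, was at least 2-fold lower than in VitaminA (351 ppm) in ATRA (112 ppm) and BMS961+BMS641 (80.8 ppm).

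Markers of other cell types that use the same genes were measured beside them. The summed level of the 6 noradrenergic and adrenergic markers was 62.3 ppm in VitaminA, against 75.3 ppm for ATRA, 133 ppm for BMS753 and 60.6 ppm for BMS961+BMS641, Dbh alone being 102 ppm in BMS753. Pnmt, the adrenaline enzyme, was detected in 1.52% to 3.01% of spots. The 7 serotonergic markers summed to 374 ppm for VitaminA, 197 ppm for ATRA, 203 ppm in BMS753 and 119 ppm with BMS961+BMS641, and their members went both ways. Tph1 and Tph2, the enzymes of the first step of serotonin synthesis, were highest in VitaminA (105 and 147 ppm, against 30.4 and 90.1 ppm in BMS753). Slc6a4, the serotonin transporter, was highest in BMS753, as Ddc was, at 20.8 ppm against 13.8, 11.3 and 7.03 ppm in VitaminA, ATRA and BMS961+BMS641. Fev, a factor of serotonin neurons, was also highest there, at 8.15 ppm against 6.89, 4.83 and 2.50292 ppm. For both genes the quadrants of BMS753 and VitaminA overlapped. Their shares of spots were close, at 23.5% in BMS753 and 22.6% in VitaminA for Slc6a4, and 10.0% and 9.78% for Fev. Of the 6 serotonergic markers compared in BMS753 against VitaminA, 4 were lower, with a median log2 ratio of -0.78. Of all genes in this comparison 36.2% were lower, with a median of 0.31. The 9 floor plate markers, only 8 of them listed in BMS753, summed to 604, 896, 693 and 644 ppm. The 8 roof plate markers, Lmx1a among them, summed to 376, 248, 337 and 773 ppm. The 14 dopamine neuron markers, which include all 10 members, summed to 659, 250, 548 and 645 ppm. Lmx1a gave 467 of the 645 ppm in BMS961+BMS641. In that section 8 of the 12 markers compared were lower than in VitaminA, with a median log2 ratio of -0.75. Of all genes compared between these sections, 64.8% were lower, with a median of -0.25. The 10 astroglial markers, only 9 of them listed in BMS753, summed to 204, 98.9, 198 and 127 ppm. The 11 endoderm markers, only 10 of them listed in BMS753 and in BMS961+BMS641, summed to 209, 152, 157 and 68.3 ppm. Among them, Sox17 was detected in 5.62%, 1.18%, 2.56% and 7.67% of spots. The 15 pan-neuronal markers summed to 1210, 1034, 1396 and 1571 ppm, with Stmn2 alone at 533 ppm in BMS961+BMS641. In that section 10 of the 14 compared were lower than in VitaminA, against 64.8% of all genes. Their median log2 ratio was -0.68. The 14 striatal projection neuron markers summed to 1746, 1197, 1758 and 2690 ppm, with Foxp1 at 1204 ppm and Gnal at 872 ppm in BMS961+BMS641. Of the 9 compared there, 5 were lower than in VitaminA (median -0.39), against 64.8% of all genes. The pattern of Nr4a2, En1 and Drd2, with VitaminA highest, was also that of the synaptic vesicle gene Syp, at 99.7 ppm in VitaminA and 4.32, 10.1 and 4.28 ppm in the ligand sections, and of the neuronal gene Elavl4, at 108 ppm and 17.7, 27.8 and 66.2 ppm. Not all pan-neuronal markers shared it. Syt1 was lowest in VitaminA, at 206 ppm against 358, 402 and 306 ppm in the ligand sections. Rbfox3 was highest in BMS753 (445 ppm, 313 ppm in VitaminA) and Gap43 in ATRA (156 ppm, 82.3 ppm in VitaminA). No marker list had a member missing from every spot of a section in which it was listed. The part of these cell types in the members' levels was not tested, and no spot was given a cell type.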

How the data were processed

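Cryosections were placed on barcoded poly-T arrays and sequenced, per the labels' protocols. Per the submitters' processing notes the genome build was mm9. In the sources used here the aligner is not given. The deposited signal of a gene in a spot had been quantile normalised by the authors, separately for each section. This was checked on the values: apart from 1 multiplier per spot, sorted values were identical across a section, ties were split by gene order, and a spot had 8604 to 12735 positive genes, depending on the section. Levels of different sections were normalised separately and set side by side as ppm.

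The members and gene lists were chosen with earlier results of these data known. Related genes were named by a rule: up to 3 higher and 3 lower per list and comparison, of at least 20 ppm, past 2-fold, with quadrants apart; some also named are set beside members whatever their change, chosen after their values were seen. No p-value was computed, since each treatment has 1 section. The tie classes and ratios were tested on simulated sections. Ties in these were split by gene order, as the classes assume, so they cannot show whether classes equal counts in the real sections. Alternatives changed the scaling, pseudocount, filter, summary and spots used. All 10 symbols matched the GRCm38.p6 tables. Python 3.11.15, numpy 2.4.6, pandas 2.3.3 and matplotlib 3.10.9 were used. A few related genes are not reported here.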

Additional observations from a re-analysis of the deposited data

How the results depend on the processing

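No paired analysis was possible because each treatment has 1 section. Without scaling to ppm, the list's median log2 ratio was -0.81 (ATRA), 0.091 (BMS753) and -0.30 (BMS961+BMS641) against VitaminA, and 4 members passed 2-fold in BMS753 against ATRA. Centred on all genes, the medians were -0.15, 0.24 and -0.59, and 0.37 with 3 genes past 2-fold in BMS753 against ATRA. With a filter of 20 ppm the medians against VitaminA were -2.70, 0.19 and -2.04, as fewer members were compared, and with 1 ppm the BMS753 median was 0.37. By the share of spots the medians were -0.30 for BMS753 and -0.33 for BMS961+BMS641 against VitaminA, and 0.55 with 3 genes past 2-fold in BMS753 against ATRA. A pseudocount of 5 ppm left 4 genes past 2-fold in that comparison. In BMS753 against VitaminA the median was 0.31 with the lowest class at 0, 0.35 with tie classes and 0.31 in spots of matched depth. Leaving out quadrants one at a time gave medians of -0.54 to -0.42 (ATRA), 0.46 to 0.59 (BMS753) and -0.90 to -0.76 (BMS961+BMS641) against VitaminA, and 1.02 to 1.33 in BMS753 against ATRA, with 3, 5 to 6, 4 and 5 to 7 genes past 2-fold. The pair ratio was 1.00 in all 4 sections with any positive value as detection, 1.36 in ATRA without the shallowest spots, and 1.01, 1.09, 1.02 and 1.03 within depth groups. Of the 21 most similar genes, 5, 2 and 0 were named again with values as deposited, with Pearson correlation and with tie classes. No member past 2-fold turned its sign in the alternatives run. Of 427 single-gene ratios under other settings, 352 moved by no more than the spread between quadrant pairs. The causes were not tested. Tie classes, matched depth, depth groups and the lines left out were chosen after the data were seen. Signal above the lowest class in a few spots limits Foxa2 and Drd1.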
